A study of Mus musculus with 4 samples.

Results

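The genes followed here are 10 readouts of Fgf-Erk signaling in the embryonic cochlea, namely the Sprouty genes *Spry1*, *Spry2* and *Spry4*, the Sprouty-related genes *Spred1* and *Spred2*, the phosphatase gene *Dusp6*, the receptor gene *Il17rd* and the Ets transcription factor genes *Etv1*, *Etv4* and *Etv5*. They were taken as all probe sets whose single platform symbol is one of these names, which gave 14 of the 35556 probe sets of the array, with 1 probe set for 6 genes and 2 probe sets for 4 genes. The RNA came from the cochlea at E15, dissected whole, of wild-type embryos (2 arrays, replicates 2 and 3) and of Meis2 mutants (2 arrays, replicates 1 and 2), which the methods of the study give as *Meis2* flox/flox; *Pax2* Cre/+. The labels do not say whether the wild-type embryos carried a floxed allele or the Cre allele, and they give no strain. The *Pax2*-Cre driver acts in the otic placode and vesicle, so cells of the cochlear sample outside its lineage are not targeted. The sources used here do not say whether the arrays of a genotype came from separate embryos, litters or pools, so the p-values measure only the spread between these arrays, which may be technical.

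Fgf ligands bind receptor tyrosine kinases that activate Erk through Ras, Raf and Mek, and in the inner ear this pathway takes part in otic induction, in the outgrowth of the duct and in the choice between pillar cells and other supporting cells. Active Erk turns on the *Etv* genes, whose proteins carry the transcriptional response, together with genes whose products damp the signal at the receptor (Il17rd), at Ras and Raf (Sprouty and Spred proteins) or at Erk itself (Dusp6). These transcripts are therefore widely used as reporters of Fgf activity in embryonic tissue.

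The array medians were close, at 6.63 and 6.65 (log2 signal) for wild type and 6.73 and 6.72 for mutants. The median difference over all probe sets was 0.11 and moved by -0.08 with medians made equal and by -0.06 after a second quantile normalization. Of the probe sets past an adjusted p of 0.05 (called), 42% were lower in mutants, and 56% were with medians made equal. *Meis2* read 9.64 and 9.38 (log2 signal) in wild-type and 9.61 and 9.80 in mutant cochleas (difference 0.19, limma adjusted p = 0.284). *Meis2* was thus not lower in the arrays labelled mutant. The sources used here do not place its probes against the deleted exons, so the genotype was not checked on these arrays, and every direction below rests on the labels. *Xist* was at 5.54 and 11.51 in wild type and at 11.83 and 11.84 in mutants, while Y-linked *Eif2s3y* was at 8.76 and 7.77 in wild type and at 4.68 and 4.88 in mutants. *Kdm5d* (8.45 and 7.57 against 5.29 and 5.57) and *Uty* (8.07 and 7.29 against 4.68 and 4.52), also Y-linked, had the same order. Both wild-type arrays therefore held Y-linked transcripts above the mutant level, wild-type replicate 3 together with *Xist*, and leaving out wild-type replicate 2 does not remove this difference between the genotypes. All 10 genes followed here lie on autosomes. This does not free them of sex, since the sex make-up of the samples and the genotype cannot be told apart on these arrays. Otic markers were present on all arrays but did not move alike, with *Oc90*, a main protein of the otoconia, at 12.88 and 12.83 in wild-type and 12.73 and 12.73 in mutant cochleas, while the otic transcription factor genes *Pax2* and *Dlx5* rose by 0.97 and 1.24 (limma adjusted p = 0.0076 and 0.00433).

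In mutant cochleas, *Etv5*, *Spry4*, *Spred2* and *Dusp6* were higher at 1 or more probe sets, with *Etv5* 2.03-fold higher at probe set 10438626 and *Spry4* 1.69-fold higher. *Etv1*, *Spred1* and *Il17rd* were lower at 1 probe set each, with *Etv1* at 0.622 and *Spred1* at 0.74 of the wild-type level. *Spry1*, *Spry2* and *Etv4* did not pass the test. In samples of whole tissue, fewer cells of a type and less RNA per cell cannot be told apart. The *Etv* genes and the *Spred* genes each had a member called higher and a member called lower at 1 or more probe sets. These calls did not extend to every probe set. *Etv1* was lower at probe set 10395457 only, and its other probe set had a difference of -0.03 (limma adjusted p = 0.77). *Spred2* did not pass with its probe sets averaged (limma adjusted p = 0.0779). By limma, with p-values adjusted by the Benjamini-Hochberg method across the whole array, 8 of the 14 probe sets passed an adjusted p of 0.05 (57.1%), against 37.3% of all probe sets. Of these, 5 were higher and 3 lower, against 21.6% and 15.7% of all probe sets. Read by the brightest probe set of each gene, 4 of the 10 genes were higher and 1 was lower, against 24.2% and 16.2% of the 19938 genes measured (40.4% in either direction). The brightest probe sets of *Etv1* and *Etv5* (10406934 and 10363901) may lie at other loci, as described below. The dimmer *Etv1* probe set was called lower and is not in this count. Both mutant arrays lay outside the range of the wild-type arrays for 13 of the 14 probe sets, and the same was true of 76.1% of all probe sets. With 2 arrays against 2, an exact permutation test of a single value cannot go below p = 0.333. Fewer of the 14 probe sets passed when any single array was left out, and fewer did over the whole array as well. Such a fit leaves 1 array in a group, whose spread is then taken from the other group.

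**Figure D1:**
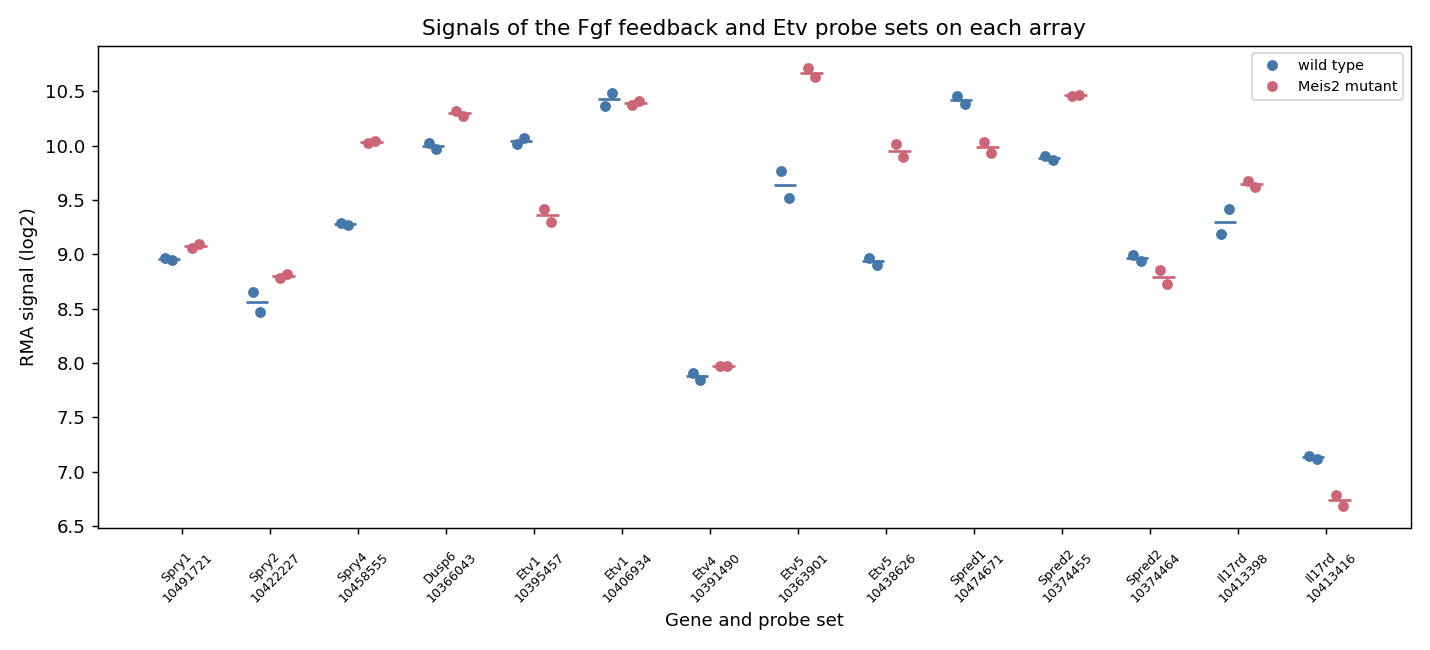
Log2 RMA signal (y axis) of each of the 14 probe sets (x axis, gene and probe set number) on the 4 arrays. Points are single arrays, horizontal lines are the means of 2 arrays, and levels are to be compared within a probe set only. The points of the mutant arrays lie apart from those of the wild-type arrays for 13 probe sets and overlap them for *Etv1* probe set 10406934.

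*Etv5* encodes an Ets factor of the Pea3 group, which activates transcription downstream of Fgf receptors. Its probe set 10438626 gave 8.97 and 8.90 in wild-type and 10.01 and 9.89 in mutant cochleas, on the log2 scale on which all signals are given here. Both mutant arrays were higher than both wild-type arrays, by 1.02 (SE 0.09, limma adjusted p = 0.00346, with 0.79 to 1.25 as the 95% interval). A second probe set, 10363901, which the platform assigns to the same transcripts, gave 9.76 and 9.52 in wild-type and 10.72 and 10.63 in mutant cochleas, a difference of 1.03 (SE 0.11, limma adjusted p = 0.00492). Probe sets numbered near 10363901, such as those of *Egr2* and *S100b*, read genes of chromosome 10, while *Etv5* lies on chromosome 16. This probe set may therefore lie at another locus, which was not checked. The size of both differences was above that of 93.9% and 94.1% of all probe sets, and no setting or omitted array ended either call (adjusted p up to 0.0339). *Etv4*, another Pea3 factor, gave 7.91 and 7.85 in wild-type and 7.97 and 7.97 in mutant cochleas. The mutant values were above the wild-type values by 0.09 (limma adjusted p = 0.376, with -0.11 to 0.30 as the 95% interval), which did not pass the test, and this interval ended below those of both *Etv5* probe sets. *Etv1*, the remaining member of the group, gave 10.01 and 10.07 in wild-type and 9.42 and 9.30 in mutant cochleas at probe set 10395457. It fell by 0.68 there (SE 0.09, limma adjusted p = 0.00653, with -0.91 to -0.46 as the 95% interval), a call that held under every setting and without any single array (adjusted p up to 0.0478). Its other probe set, 10406934, read 10.37 and 10.49 in wild-type and 10.38 and 10.41 in mutant cochleas, so that the groups overlapped (difference -0.03, limma adjusted p = 0.77). The sign of that small difference turned after a second quantile normalization (0.0043) and without wild-type replicate 3 (0.02). Probe sets numbered near 10406934, such as those of *Hapln1* and *Fgf10*, read genes of chromosome 13, while *Etv1* lies on chromosome 12. Probe set 10406934 may therefore lie at another locus, which was not checked.

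To show the DNA in front of these genes, the 250 bases before each start site in RefSeq were searched on both strands for TGACAG, a sequence that Meis proteins bind directly, TGATNNAT, a sequence of the kind that Pbx and Hox proteins bind together and to which Meis binds indirectly, CCGGAA, a core of Ets sites, and TGACGTCA, the site of Creb proteins. Of 32817 such windows of all genes, 15.9% held TGACAG, 7.69% held TGATNNAT, 12% held CCGGAA and 1.55% held TGACGTCA. The table held 10 windows for 8 of the genes, and *Spry4* and *Etv4* were not among them. CCGGAA and TGACGTCA were in 0 of the 10 windows, TGACAG was in 1 and TGATNNAT in 2. *Etv5*, the gene with the largest rise, had 2 windows without any of these letters, and the one printed here lies at chr16:22439571-22439820 (GRCm38.p6, minus strand). *Etv1* had TGATNNAT on the reverse strand at 124 bases before the start site at chr12:38783461-38783710 (GRCm38.p6, plus strand). Capitals mark the motif, and a match in these windows is a description of the letters only.
Etv5: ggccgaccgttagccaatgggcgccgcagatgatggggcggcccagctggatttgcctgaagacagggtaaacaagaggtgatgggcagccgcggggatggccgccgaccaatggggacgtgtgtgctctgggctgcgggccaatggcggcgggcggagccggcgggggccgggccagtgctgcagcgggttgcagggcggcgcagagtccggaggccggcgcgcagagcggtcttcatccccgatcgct
Etv1: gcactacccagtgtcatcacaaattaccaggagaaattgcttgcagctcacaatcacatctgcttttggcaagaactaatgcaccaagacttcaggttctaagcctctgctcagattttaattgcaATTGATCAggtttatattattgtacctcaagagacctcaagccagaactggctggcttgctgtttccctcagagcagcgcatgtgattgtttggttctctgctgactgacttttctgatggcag

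**Figure D2:**
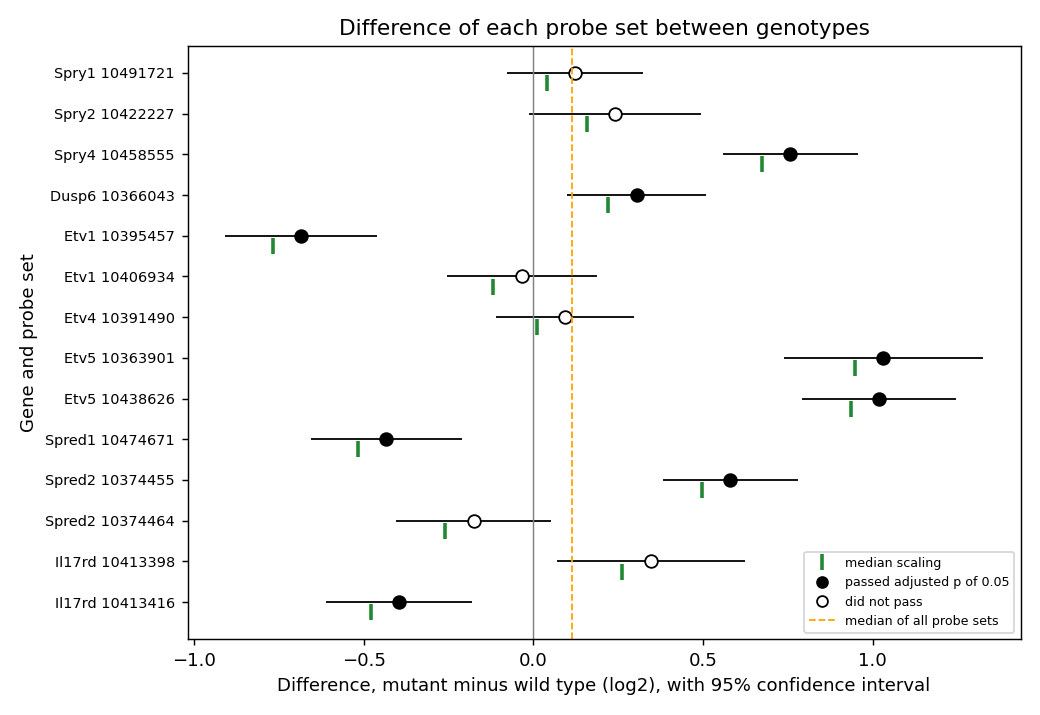
Mutant minus wild-type log2 signal (x axis) of each probe set (y axis). Points are differences of means of 2 arrays, bars are 95% confidence intervals from limma, green ticks are the differences with medians made equal and the dashed line is the median of all probe sets (0.11). Both *Etv5* probe sets lie furthest to the right, at 1.02 and 1.03, and *Etv1* probe set 10395457 furthest to the left, at -0.68.

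Sprouty proteins are induced by receptor tyrosine kinases and block the activation of Ras and Raf in the same cell. *Spry4* read 9.29 and 9.27 (log2 signal) in wild-type and 10.03 and 10.04 in mutant cochleas. It rose by 0.76 (SE 0.08, limma adjusted p = 0.00435, with 0.56 to 0.96 as the 95% interval), the replicates of each genotype lay within 0.02 of each other, and its call held under every setting and without any single array (adjusted p up to 0.0364). *Spry2* gave 8.66 and 8.47 in wild-type and 8.78 and 8.82 in mutant cochleas. The mutant arrays were above both wild-type arrays by 0.24 on average, with a 95% confidence interval of -0.01 to 0.50 that reached zero (limma adjusted p = 0.113). *Spry1* gave 8.96 and 8.94 in wild-type and 9.06 and 9.09 in mutant cochleas, a difference of 0.12 (limma adjusted p = 0.255, with -0.08 to 0.32 as the 95% interval) that was close to the median of all probe sets. All 3 Sprouty genes had mutant values above the wild-type values, where 76.1% of all probe sets did not overlap between genotypes and the median of all shifted by 0.11, and *Spry4* alone passed the test of limma, with an interval that began above the end of the intervals of *Spry1* and *Spry2*. Differences between these genes were not tested. Significance analysis of microarrays (SAM), the test named in the methods of the study, also placed *Spry1*, *Spry2* and *Etv4* past its threshold, as it did 75.8% of all probe sets. *Spry1* had the only window with TGACAG, at 235 and 221 bases before its start site, and it is printed for that reason with both copies in capitals (chr3:37639697-37639946, GRCm38.p6, plus strand).
Spry1: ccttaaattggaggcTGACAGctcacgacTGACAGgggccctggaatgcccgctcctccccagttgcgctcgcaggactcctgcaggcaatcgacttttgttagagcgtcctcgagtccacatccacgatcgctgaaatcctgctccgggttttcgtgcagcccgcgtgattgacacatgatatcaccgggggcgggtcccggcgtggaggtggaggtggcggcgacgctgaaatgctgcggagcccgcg

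Spred proteins share the Sprouty domain and recruit neurofibromin to switch off Ras. *Spred1* read 10.45 and 10.38 (log2 signal) in wild-type and 10.04 and 9.93 in mutant cochleas. It fell by 0.43 in mutants (SE 0.09, limma adjusted p = 0.0193, with -0.66 to -0.21 as the 95% interval), with no overlap between the genotypes, and this call did not hold when wild-type replicate 2 was left out (adjusted p = 0.0572), nor without *Meis2* mutant replicate 1 (0.0682) or 2 (0.111). *Spred2* moved the other way at probe set 10374455, with signals of 9.90 and 9.87 in wild-type and 10.46 and 10.47 in mutant cochleas. It rose by 0.58 there (SE 0.08, limma adjusted p = 0.00728, with 0.38 to 0.78 as the 95% interval), and among the arrays, leaving out *Meis2* mutant replicate 2 alone ended this call (adjusted p = 0.0535). Its other probe set, 10374464, for which the platform lists no curated RefSeq transcript, gave 8.99 and 8.94 in wild-type and 8.85 and 8.72 in mutant cochleas (difference -0.18, limma adjusted p = 0.172). With both probe sets averaged, *Spred2* was higher by 0.20 and did not pass the test (limma adjusted p = 0.0779).

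*Dusp6* encodes a phosphatase that removes the activating phosphates from Erk in the cytoplasm. It read 10.02 and 9.97 (log2 signal) in wild-type and 10.32 and 10.27 in mutant cochleas. The mutant arrays were higher by 0.30 (SE 0.08, limma adjusted p = 0.0388, with 0.10 to 0.51 as the 95% interval), a 1.23-fold rise. This call rests on all 4 arrays, since it ended without any one of them (adjusted p 0.0735 to 0.174), and it also ended with medians made equal (difference 0.22, adjusted p = 0.0947). The window in front of *Dusp6* at chr10:99262981-99263230 (GRCm38.p6, plus strand) held TGATNNAT on the reverse strand at 112 bases before the start site, in capitals here.
Dusp6: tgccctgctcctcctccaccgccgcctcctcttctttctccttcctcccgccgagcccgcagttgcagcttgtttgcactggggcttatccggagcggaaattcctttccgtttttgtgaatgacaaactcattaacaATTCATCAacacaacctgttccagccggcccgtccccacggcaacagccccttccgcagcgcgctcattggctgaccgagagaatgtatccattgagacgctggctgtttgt

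*Il17rd*, also known as Sef, encodes a membrane protein that binds Fgf receptors and lowers their signal. At probe set 10413398 its log2 signals were 9.19 and 9.41 in wild-type and 9.68 and 9.61 in mutant cochleas. Both mutant arrays were higher, by 0.35 on average (SE 0.11, limma adjusted p = 0.0595), which did not pass the test, although it did after a second quantile normalization (adjusted p = 0.0336), among probe sets with 1 symbol (adjusted p = 0.0293) and without wild-type replicate 3 (adjusted p = 0.0402). At probe set 10413416 the signals were 7.15 and 7.11 in wild-type and 6.78 and 6.69 in mutant cochleas. There *Il17rd* fell by 0.40 (SE 0.08, limma adjusted p = 0.0219), and this call ended without any one array (adjusted p 0.0547 to 0.125). With both probe sets averaged, the difference was -0.02 (limma adjusted p = 0.824), so no direction can be given for the gene as a whole.

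For 3 of the 4 genes with 2 probe sets, the probe sets did not move together. The gap between them was computed on each array, and limma was run on these gaps over the 763 genes with exactly 2 probe sets, a test chosen after the values had been seen. The gap of *Spred2* was 0.91 and 0.93 in wild type and 1.60 and 1.75 in mutants, a widening by 0.76 (SE 0.08, limma adjusted p = 0.00974). That of *Il17rd* was 2.04 and 2.30 in wild-type and 2.90 and 2.93 in mutant cochleas, a widening by 0.74 (SE 0.11, limma adjusted p = 0.0182). That of *Etv1* was 0.35 and 0.42 in wild-type and 0.96 and 1.11 in mutant cochleas, a widening by 0.65 (SE 0.09, limma adjusted p = 0.0138). In each of these genes both mutant arrays were below both wild-type arrays at the dimmer probe set. The gap of *Etv5* was 0.80 and 0.62 in wild-type and 0.70 and 0.73 in mutant cochleas and changed by 0.01 (limma adjusted p = 0.936, with -0.24 to 0.26 as the 95% interval), a sign that turned when wild-type replicate 3 (-0.08) or *Meis2* mutant replicate 2 (-0.0041) was left out. Changed gaps were common on these arrays, with 29.1% of the 763 genes called, 127 of them wider and 95 narrower, and 25.3% had probe sets of opposite sign. For *Etv1* and *Etv5*, the brighter probe sets (10406934 and 10363901) are numbered among those of other chromosomes. The gaps of these genes may therefore not compare parts of 1 gene. The calls of *Etv1* and *Il17rd* ended without either mutant array (adjusted p up to 0.078 and 0.105), and that of *Spred2* ended without *Meis2* mutant replicate 2 (adjusted p = 0.065).

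**Figure D3:**
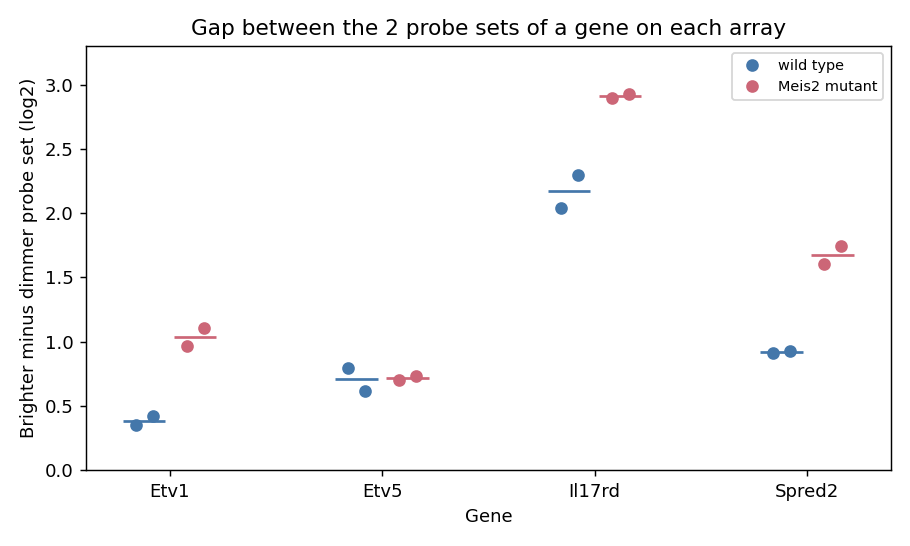
Difference in log2 signal between the brighter and the dimmer probe set (y axis) of the 4 genes with 2 probe sets (x axis). Points are single arrays and horizontal lines are means of 2 arrays. The gap is wider on both mutant arrays for *Etv1*, *Il17rd* and *Spred2* and overlaps between genotypes for *Etv5*.

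The rest of the pathway was read in 6 lists of 103 genes, of which 94 had a probe set with 1 symbol. Of these, 30 were higher and 8 lower by limma, against 24.2% and 16.2% of all genes measured. These counts dropped to 11 and 4 without *Meis2* mutant replicate 1 and to 9 and 4 without *Meis2* mutant replicate 2. The receptors stood on the higher side, with 7 of 10 receptor and coreceptor genes higher and 1 lower, and a median difference of 0.38 beside 0.13 over all genes. The count of 7 includes *Kl* and *Klb*, which were dim, with wild-type means of 5.05 and 4.97 beside array medians of 6.63 to 6.73. That count rests on all arrays, since 5 were higher without wild-type replicate 2, 3 without wild-type replicate 3 and 2 without either mutant array, with none lower in any of these, and 5 were higher with medians made equal. *Fgfr1*, the main receptor of the early sensory domain, was at 11.50 and 11.40 in wild-type and 11.98 and 11.96 in mutant cochleas and rose by 0.52 (limma adjusted p = 0.0113, or 0.0666 without *Meis2* mutant replicate 1 and 0.0672 without *Meis2* mutant replicate 2). *Fgfr4* rose by 0.68 and *Fgfrl1*, a receptor without a kinase domain, by 0.65 (limma adjusted p = 0.00544 and 0.00606). *Fgfr2*, which acts in the non-sensory epithelium, was at 10.72 and 10.77 in wild-type and 11.01 and 11.01 in mutant cochleas and missed the threshold (difference 0.27, limma adjusted p = 0.0503), although it passed after a second quantile normalization (adjusted p = 0.0252).

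Of 22 ligands, 4 were higher and 3 lower, not above the shares of 24.2% and 16.2% over all genes. Their median difference was 0.10, beside 0.13 over all genes. Those called higher were dim, with mean signals of 5.91 to 7.14 over the 4 arrays (*Fgf23* at 6.13), where the array medians were 6.63 to 6.73. Those called lower were brighter, with means of 7.74 to 9.32. No ligand was higher without *Meis2* mutant replicate 2, 1 was without *Meis2* mutant replicate 1 or wild-type replicate 2, and 2 were without wild-type replicate 3, while the lower ligands numbered 1 without either mutant array. Those that fell included *Fgf10*, a ligand of the otic epithelium, which was at 9.78 and 9.59 in wild-type and 8.98 and 8.91 in mutant cochleas and fell by 0.74 (limma adjusted p = 0.00788, or 0.0535 without *Meis2* mutant replicate 2). *Fgf9*, which signals from the epithelium to the mesenchyme, was at 8.25 and 8.17 in wild-type and 7.43 and 7.68 in mutant cochleas and fell by 0.66 (limma adjusted p = 0.0136, or 0.0594 without *Meis2* mutant replicate 1). *Fgf23*, a circulating ligand, was at 5.82 and 5.79 in wild-type and 6.39 and 6.52 in mutant cochleas and rose by 0.65 (limma adjusted p = 0.00723, or 0.0513 without *Meis2* mutant replicate 2). *Fgf8*, the ligand of inner hair cells, had a difference of 0.25 (limma adjusted p = 0.0662).

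In the cascade from receptor to Erk, 5 of 18 genes were higher and 4 lower, with a median of 0.15. Over all genes, 24.2% were higher and 16.2% lower, with a median of 0.13. Only 1 was higher when *Meis2* mutant replicate 2 was left out, and 2 were when any other single array was, or with medians made equal. *Cbl*, a ubiquitin ligase that removes activated receptors, rose by 0.80, while *Rasa1*, a Ras GTPase-activating protein, fell by 0.84 and *Rps6ka3*, a kinase activated by Erk, fell by 0.75 (limma adjusted p = 0.0049, 0.00373 and 0.00591). *Ptpn11*, a phosphatase needed for Ras activation, had a difference of -0.16 and *Nf1*, the neurofibromin bound by Spred proteins, of 0.10 (limma adjusted p = 0.18 and 0.369).

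Of 14 further feedback genes, 7 were higher and none was lower, beside 24.2% and 16.2% of all genes. Their median was 0.38 (0.30 with medians made equal and 0.44 after a second quantile normalization). Leaving out *Meis2* mutant replicate 1 gave 2 higher genes, and leaving out *Meis2* mutant replicate 2 gave 3. *Spry3*, a further Sprouty gene, was at 7.53 and 7.23 in wild-type and 8.85 and 8.31 in mutant cochleas and rose by 1.20 (limma adjusted p = 0.0137). *Dusp7* and *Dusp8*, phosphatases of mitogen-activated kinases, rose by 0.70 and 0.68 (limma adjusted p = 0.0147 and 0.00627). The call of *Dusp7* ended without *Meis2* mutant replicate 1 (adjusted p = 0.059) or 2 (adjusted p = 0.0802), while those of *Spry3* and *Dusp8* held without any single array.

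Among 10 transcription factor and cell cycle genes that Erk induces, *Myc* alone passed the test and rose by 0.58 (limma adjusted p = 0.0103, or 0.0625 without *Meis2* mutant replicate 1 and 0.0501 without *Meis2* mutant replicate 2). Without wild-type replicate 2, the differences of *Egr1*, *Fos* and *Ier2* were -0.83, -1.17 and -0.74. Without wild-type replicate 3 they were 0.53, 0.14 and -0.25. The wild-type values of these genes spread widely, and a fit with 1 wild-type array does not measure that spread. The list's median of 0.03 turned to -0.05 with medians made equal and to -0.04 after a second quantile normalization. *Ccnd1*, which encodes cyclin D1, was at 11.93 and 11.81 in wild-type and 11.96 and 11.99 in mutant cochleas (difference 0.11, limma adjusted p = 0.362). Of 20 other Ets factor genes, 6 were higher and none was lower, with a median of 0.13, and 3 were higher without *Meis2* mutant replicate 2. Among all genes measured, 24.2% were higher and 16.2% lower. *Elf4* rose by 0.98, the repressor *Etv6* by 0.92 and *Elk1*, a nuclear target of Erk, by 0.77 (limma adjusted p = 0.00411, 0.00859 and 0.00432). *Elf4*, *Elk1*, *Rps6ka3* and *Spry3* lie on the X chromosome, and without wild-type replicate 2, the array low in *Xist*, their differences were 1.07, 0.76, -0.82 and 1.35. Wild-type replicate 3 still held Y-linked transcripts, so this omission does not remove the sex difference between the genotypes. The part of embryo sex in these differences was not tested and cannot be told apart from genotype here.

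**Figure D4:**
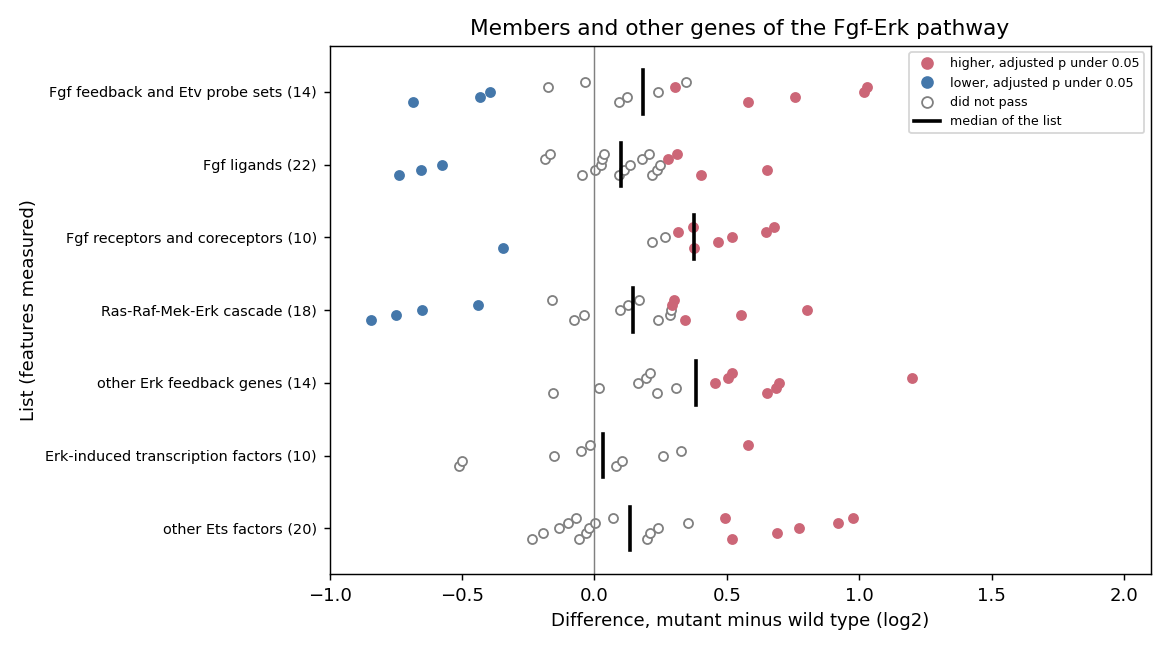
Mutant minus wild-type log2 signal (x axis) of the 14 probe sets followed here and of the genes of 6 lists of the Fgf-Erk pathway (y axis, with the number measured). Points are probe sets or genes, coloured where they passed an adjusted p of 0.05, and black bars are medians. The medians of the receptors (0.38) and of the further feedback genes (0.38) lie furthest to the right.

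The profile of *Etv5* probe set 10438626 over the 4 arrays, centred on its mean, was closest to those of *Elf4*, *Etv6* and *Elk1* among 106 probe sets of the other genes followed here and of the pathway lists, at Euclidean distances of 0.13, 0.19 and 0.26 on the log2 scale. That of *Etv1* probe set 10395457 was closest to those of *Rps6ka3*, *Sos1* and *Rasa1*, at 0.09, 0.16 and 0.17. These distances describe 4 arrays and carry no test.

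Whole cochleas hold many cell types, whose markers were read in the same way. The counts below stand beside 24.2% higher and 16.2% lower among all genes measured, and several lists were near those shares. Of 11 spiral ganglion neuron markers, 6 were lower and none was higher, and their summed log2 signal was 102.63 to 103.08 in wild-type and 96.32 to 96.52 in mutant cochleas, while *Nefl*, a neurofilament gene, fell by 1.63 and *Gap43*, a growth cone gene, fell by 1.19. Of 6 markers of Schwann and satellite glia, 3 were lower and 1 was higher, with sums of 55.00 to 55.42 and 52.82 to 53.18. Of 10 skeletal muscle markers, 8 were higher and none was lower, with sums of 62.68 to 65.30 and 68.76 to 72.20, and of 10 cartilage markers 3 were higher and none was lower, with sums of 112.52 to 113.13 and 115.80 to 116.29. Of 10 cochlear epithelium markers, 5 were higher and 1, *Epcam*, fell by 0.90, and of 12 prosensory and supporting cell markers 2 were higher and 4 were lower, among them *Sox2*, which fell by 1.94. In hair cells 4 of 10 markers were higher and 2 lower, in periotic mesenchyme 2 of 10 and 2, in erythroid cells 2 of 4 and 1, in macrophages 1 of 8 and 1, in endothelium 0 of 8 and 0, and in hindbrain and other brain tissue 1 of 7 and 0. The part of these marker changes in the differences of the Fgf feedback and Etv genes was not tested.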

How the data were processed

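Cochlear RNA of 2 wild-type and 2 Meis2 mutant samples at E15 was hybridized to Affymetrix Mouse Gene ST arrays. The values analysed are on the log2 scale and were deposited after the authors had run RMA (background correction, normalization, summary by probe set). RMA and the build mm8 are named in the processing notes of the submitters, and a version of RMA is not given in the sources used here. Array data hold no read depth, and the number of arrays limits the precision.

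Differences were tested in R 4.3.3 by limma 3.58.1 (lmFit and eBayes, no covariate, no filter) on all 35556 probe sets, with Benjamini-Hochberg adjustment and a threshold of 0.05. Each spread rests on 2 residual degrees of freedom and 2.91 from the prior. Probe sets were named through the platform annotation, which gives 21789 of them 1 symbol, updated from a current record for 21698. A gene outside the 10 members was read by its probe set with the highest mean. Named were all member probe sets, in each pathway list up to 3 called genes with the largest difference and up to 2 uncalled ones with the highest mean, and in marker lists up to 2 genes with the smallest p, from which the text takes examples. *Xist*, the Y-linked genes, *Oc90*, *Pax2*, *Fos*, *Ier2*, *Junb* and *Egr3* were chosen after their values were seen. The members, lists and rules were chosen with earlier results of these data known. SAM, which the methods name, has 6 relabelings here and was run as an alternative, beside other priors, scalings, filters, array weights, means over probe sets and omission of each array. An arm left with 1 array was assumed to vary like the other. The code was tested on simulated data. Promoter sequences are from RefSeq (GRCm38.p6).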

Additional observations from a re-analysis of the deposited data

How the results depend on the processing

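No paired analysis was made, since the sources used here do not say that any arrays of the 2 genotypes were paired. Of 168 values of single probe sets under 12 alternatives, 145 kept their direction and side of the threshold, 13 lost the call, 8 gained one and 2 turned, both for *Etv1* probe set 10406934 (0.0043 after a second quantile normalization and 0.02 without wild-type replicate 3). With both probe sets averaged, *Il17rd* turned to -0.0247. The gap of *Etv5* ranged from -0.0779 to 0.1011 with arrays left out one at a time, and *Etv1* probe set 10406934 from -0.0927 to 0.0247. In the same way, the Fgf feedback and Etv probe sets called ranged from 3 to 5 higher and from 1 to 2 lower, and their genes by brightest probe set from 2 to 4 and from 0 to 1. The pathway genes called ranged from 9 to 22 higher (30 with all arrays) and from 4 to 10 lower (8 with all arrays), and all probe sets from 1998 to 5470 higher (7695 with all arrays) and from 2613 to 5425 lower (5573 with all arrays). SAM placed 17778 probe sets higher and 9184 lower, and 9 member probe sets higher and 4 lower. It placed 8 genes higher by brightest probe set, and 56 pathway genes higher and 14 lower. With medians made equal, 5062 probe sets were higher, and a mean over probe sets gave 2 lower genes among the 10. The cause of these shifts was not tested.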

Other observations

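The immediate early genes *Egr1*, *Fos* and *Ier2*, which Erk induces rapidly, spread widely between the wild-type arrays. *Egr1* was at 7.58 and 8.94 in wild-type and at 8.11 and 8.10 in mutant cochleas, so that both mutant values lay between the wild-type values. Its difference was 0.53 without wild-type replicate 3 and -0.83 without wild-type replicate 2. *Fos* was at 6.07 and 7.38 in wild-type and at 6.29 and 6.15 in mutant cochleas, a difference of -0.51 (limma adjusted p = 0.374). That difference was -1.17 without wild-type replicate 2 and 0.14 without wild-type replicate 3. *Ier2* was at 7.19 and 7.68 in wild-type and at 6.95 and 6.92 in mutant cochleas, and both mutant arrays were lower, with a difference of -0.50 (limma adjusted p = 0.0789), or of -0.74 without wild-type replicate 2. These wild-type gaps were wider than those of any of the 14 Fgf feedback and Etv probe sets.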
